A study of Sus scrofa with 59 samples.

Results

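Most of the genes described here encode the mitochondrial ribosome and the machinery that brings proteins into mitochondria. The set holds all genes whose symbol in the array's annotation begins with MRPL, MRPS, TIMM or TOMM, which gave 76 of the 6765 genes named on the array. There were 36 MRPL genes, 22 MRPS genes, 11 TIMM genes and 7 TOMM genes. Each was represented by 1 probe set, the one with the highest mean over all arrays. The values come from the longissimus dorsi, the long loin muscle of the back, of 59 pigs, with 1 Affymetrix array for each pig. All pigs came from a cross named LD/LW x Duroc, were raised together with free access to feed, and were 170 days old, and tissue taken at slaughter went into liquid nitrogen. The labels give no sex, litter, trait value or array batch for a pig, so the pigs form 1 group and the number in a pig's title serves only as its name.

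Mitochondria keep a small genome of their own that encodes core subunits of the respiratory chain, and a ribosome inside the organelle translates its messages. The proteins of that ribosome are encoded in the nucleus, MRPL for the large subunit and MRPS for the small subunit, and they are made in the cytosol and imported. The TOM complex in the outer membrane receives nearly all imported proteins. In the inner membrane, the TIM23 complex moves proteins with a presequence towards the matrix, the TIM22 complex inserts carrier proteins, and small TIMM chaperones escort hydrophobic proteins across the space between the membranes. Most respiratory chain subunits travel by the same route, and skeletal muscle fibres differ widely in how many mitochondria they hold.

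Array medians lay between 6.23 and 6.30 on the log2 scale, no arrays held identical values, and the lowest correlation between any pair of arrays was 0.969. Muscle genes were bright on every array: the mean of 6 skeletal muscle markers (CKM, MYH2, MYH7, TNNT3, DES and TTN) lay between 14.05 and 14.27. Markers of other cell types were also present, with the mean of 3 fibroblast and matrix genes between 9.53 and 10.65 and the mean of 4 adipocyte genes between 8.08 and 9.08. In whole muscle, fewer cells or fibres of a kind and less RNA of a gene per cell cannot be told apart.

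Every one of the 76 members passed the filter on dim probe sets, which asked for a mean of at least 6.27, the median of all probe set means. The mean of a member over the 59 pigs ran from 6.53 for TOMM70 to 12.82 for TIMM8B. Probe sets differ in how strongly they bind their target, so these means do not rank the genes by abundance. TOMM70, a receptor of the outer membrane, lay closest to the filter, followed by TOMM34 at 6.85 and MRPS23 at 6.94.

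The members varied little between pigs. The median SD over pigs was 0.166 (log2, 76 genes), against 0.197 over the 4928 tested genes, 0.142 over 56 respiratory chain genes and 0.0709 over 56 cytosolic ribosomal protein genes. These sets differ in brightness, and differences between bright probe sets can be compressed on these arrays. The mean of a set, as the median over pigs, was 9.46 for the members, 12.10 for chain genes and 13.36 for cytosolic ribosomal protein genes. No member reached an SD of 0.5, which 217 of the 4928 tested genes exceeded. The TIMM genes had the highest median SD of the families, at 0.231, followed by TOMM at 0.193, MRPS at 0.161 and MRPL at 0.156. The 5 members with an SD over 0.3 were TIMM8A, MRPS9, TIMM21, MRPL32 and MRPS36.

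**Figure D1:**
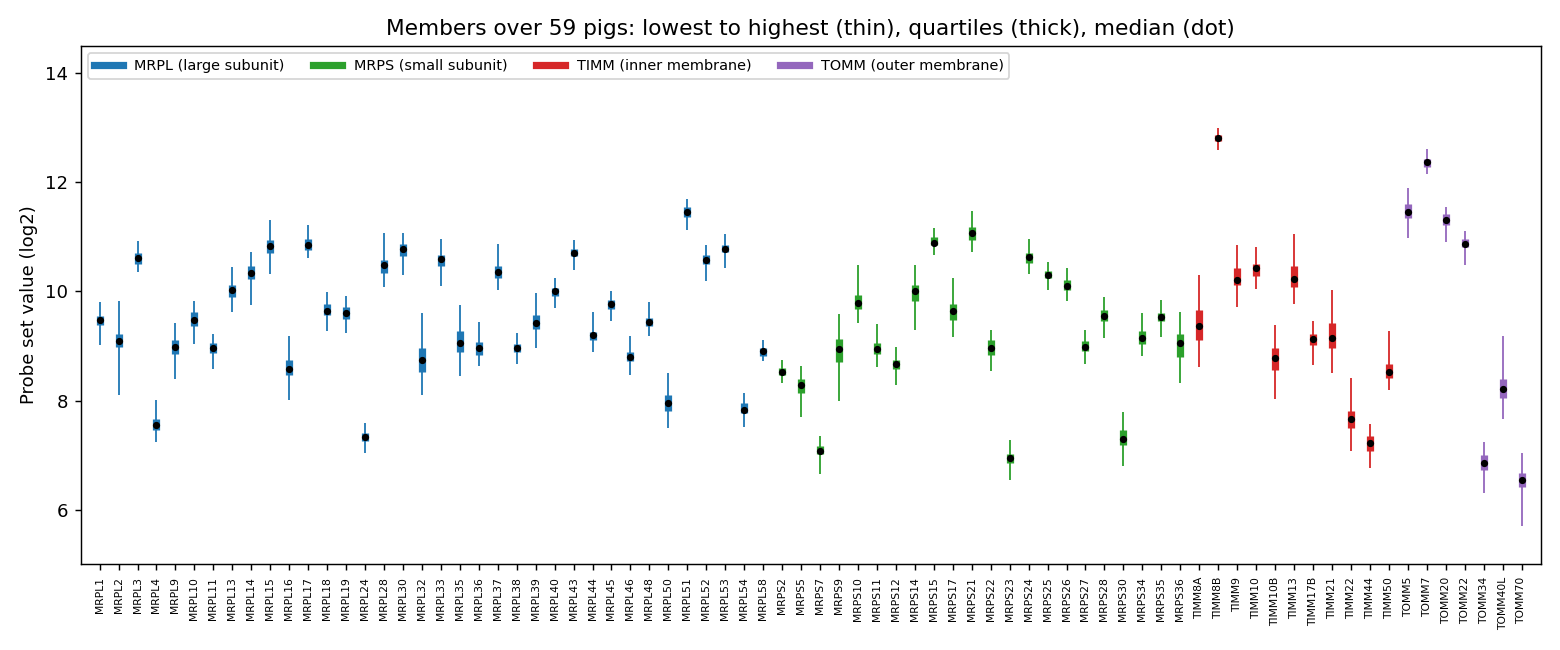
Probe set values (log2) of the 76 members over 59 pigs, coloured by symbol family: thin lines run from the lowest to the highest pig, thick lines span the quartiles and dots are medians. Lines are short for most members, with TIMM8A (8.61 to 10.30) and MRPS9 (8.0 to 9.60) among the widest and TIMM8B (12.59 to 12.99) among the narrowest.

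The members co-varied only loosely. The median Pearson correlation over the 2850 pairs of members was 0.163 (jackknife SE over pigs 0.021, n = 59 pigs), against 0.00623 over all pairs of tested genes, 0.486 among the respiratory chain genes and 0.460 among the cytosolic ribosomal protein genes. All such correlations share the same 59 arrays and their normalisation, and they are given as descriptions. Ribosome members (MRPL and MRPS symbols) correlated with each other (median 0.165) about as much as with import members (TIMM and TOMM symbols, 0.160). The subunits showed the same: the median was 0.175 among MRPL genes, 0.136 among MRPS genes and 0.164 between them. Pairs of TIMM genes had a higher median, 0.381, whereas pairs of TOMM genes had a median of 0.0359.

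A smaller group co-varied tightly. A correlation over 0.5 was found for 10.8% of member pairs, 2.89% of all pairs of tested genes and 48.2% of respiratory chain pairs. Over 0.7 there were 48 pairs of members, drawn from 20 genes, and 35 of these pairs held at least 1 import gene. The closest pair was TIMM8A and TIMM21 (r = 0.890), then TIMM21 and TIMM22 (0.876) and TIMM13 and TIMM8A (0.864). TIMM8A and TIMM13 together form a chaperone of the intermembrane space, TIMM21 is a subunit of the presequence translocase, and TIMM22 is the channel of the carrier translocase, so these pairs join several branches of the import route. Large subunit genes belonged to the same group: MRPL32 correlated with TIMM21 at 0.828, MRPL44 with TIMM9 at 0.823 and MRPL35 with TIMM13 at 0.822. TIMM21 took part in 11 of the 48 pairs and MRPL32 in 10. The small subunit gene in most such pairs was MRPS22, with 6, and TOMM20, the presequence receptor of the outer membrane, joined through TIMM9 (r = 0.777). Every gene named so far in this paragraph was also called higher on the heat shock score described below, as were 23.6% of all tested probe sets. Their r with that score ran from 0.412 for MRPL44 to 0.616 for MRPS22. Of the 20 genes, MRPL28, MRPS36, TIMM44, TOMM40L and TOMM5 were not called on it. The part of that score in these pairs was not tested.

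Other members stood apart from this group. When each member was set against the mean of the others, 31 of 76 had a correlation over 0.5 and 16 had one under 0.2, with a median of 0.405. TIMM9 had the highest value (0.769), then MRPL44 (0.745), MRPL36 (0.724) and TOMM20 (0.704). TOMM34 (-0.0821) and MRPS23 (-0.0187) had the only negative values, and MRPL53 (0.0106), MRPL52 (0.0451) and TIMM10B (0.0559) lay near 0. TOMM34 is, despite its symbol, mostly a cytosolic co-chaperone. MRPL53, a large subunit protein found in mitochondria but not in bacteria, gave the lowest pairs of all, at -0.553 with TIMM13, -0.517 with MRPL35 and -0.504 with TIMM8A. With the heat shock score, MRPL53 had r = -0.502.

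**Figure D2:**
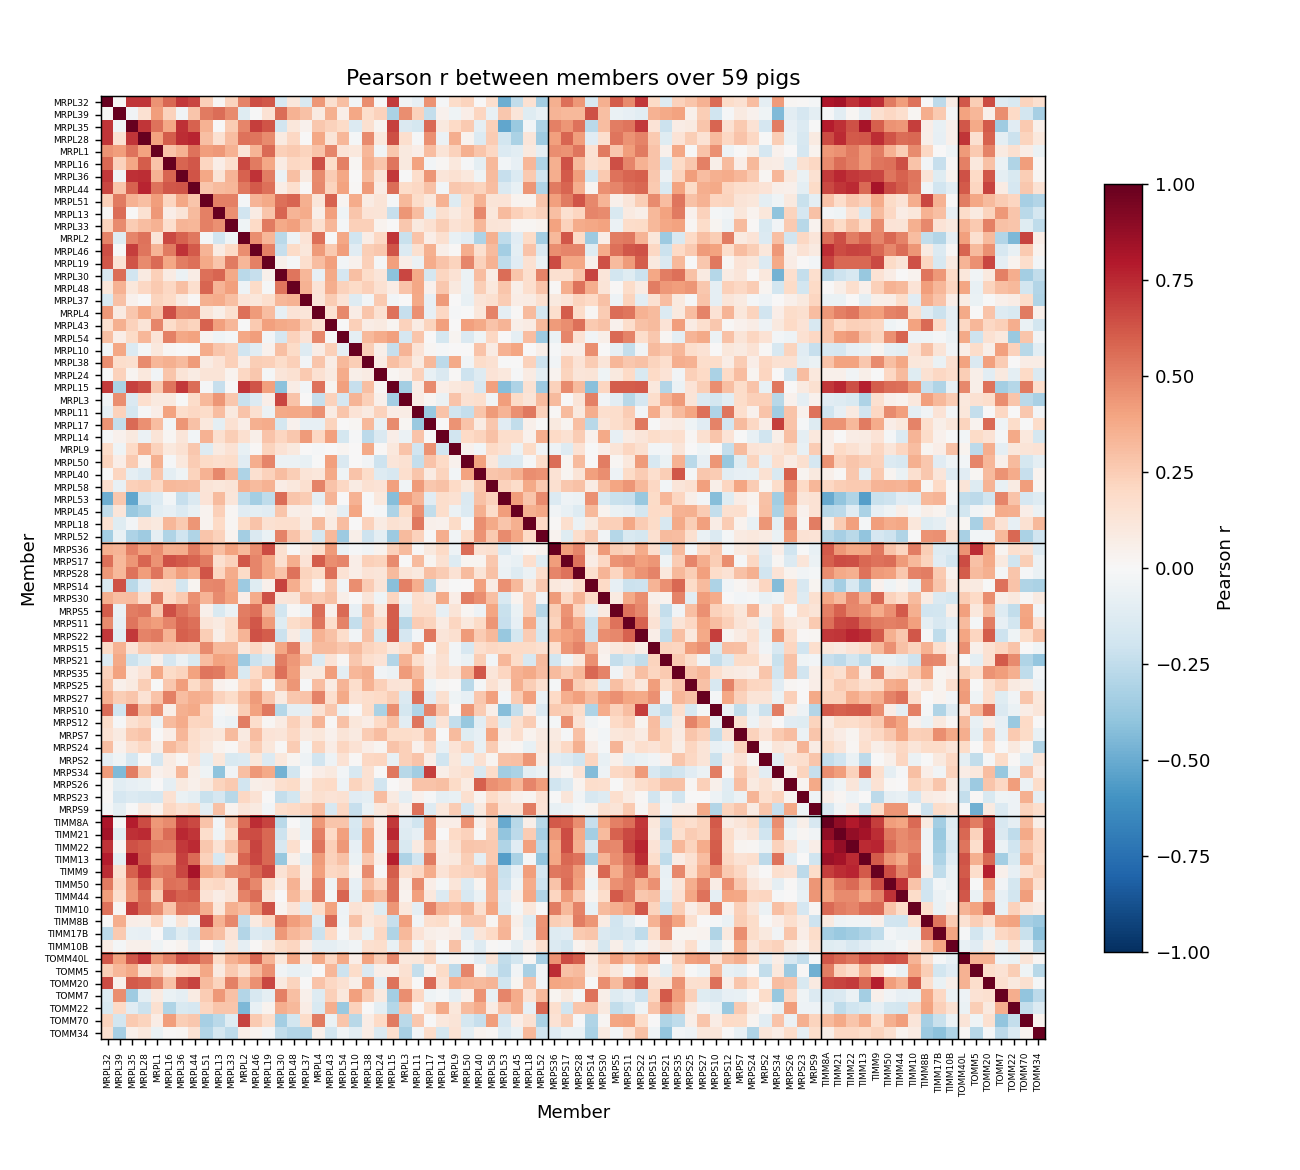
Pearson correlation between all pairs of the 76 members over 59 pigs, with genes ordered by family (black lines) and, within a family, from the highest to the lowest slope on the respiratory chain score. The dark block where TIMM8A, TIMM21, TIMM22, TIMM13 and TIMM9 meet extends into MRPL32, MRPL35, MRPL36 and MRPL44, and the row of MRPL53 is blue against the same genes.

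The relation to the respiratory chain was measured with a score, the mean of 56 respiratory chain genes after each was scaled to the same spread: 32 genes of complex I, 2 of complex III, 8 of complex IV and 14 of ATP synthase. The slope of each probe set on that score, in log2 units per SD of the score, was tested with limma over 11938 probe sets, with p-values adjusted by Benjamini and Hochberg over all of them and called under 0.05. Higher with the score were 32 of the 76 members, and 0 were lower, where 6.5% of all tested probe sets were called higher and 2.33% lower. At an unadjusted p under 0.05, 48 members passed, and so did 21.2% of all tested probe sets. The median slope of the members was 0.0486, against -0.00331 over all tested probe sets, and 65 of 76 slopes were positive. By family, the call was made for 17 of 36 MRPL genes, 5 of 22 MRPS genes, 7 of 11 TIMM genes and 3 of 7 TOMM genes.

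One animal carried part of this count. Pig 72 had the highest respiratory chain score, 3.41 SD, with the next pig at 1.91, and it had the highest value of any pig for 21 of the 76 members: 9 MRPL, 4 MRPS, 7 TIMM and 1 TOMM. Without pig 72 there were 20 members higher and 0 lower, with 4.25% of all probe sets higher, and 19 of the 32 calls were kept. By family, 12 MRPL, 3 MRPS, 4 TIMM and 1 TOMM were called without it. Pig 72 also had the highest slow fibre score (3.36 SD), the highest mean of 4 endothelial markers (8.90) and the second lowest mean of 3 fibroblast and matrix genes (9.62), and the part of these in the result was not tested.

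**Figure D3:**
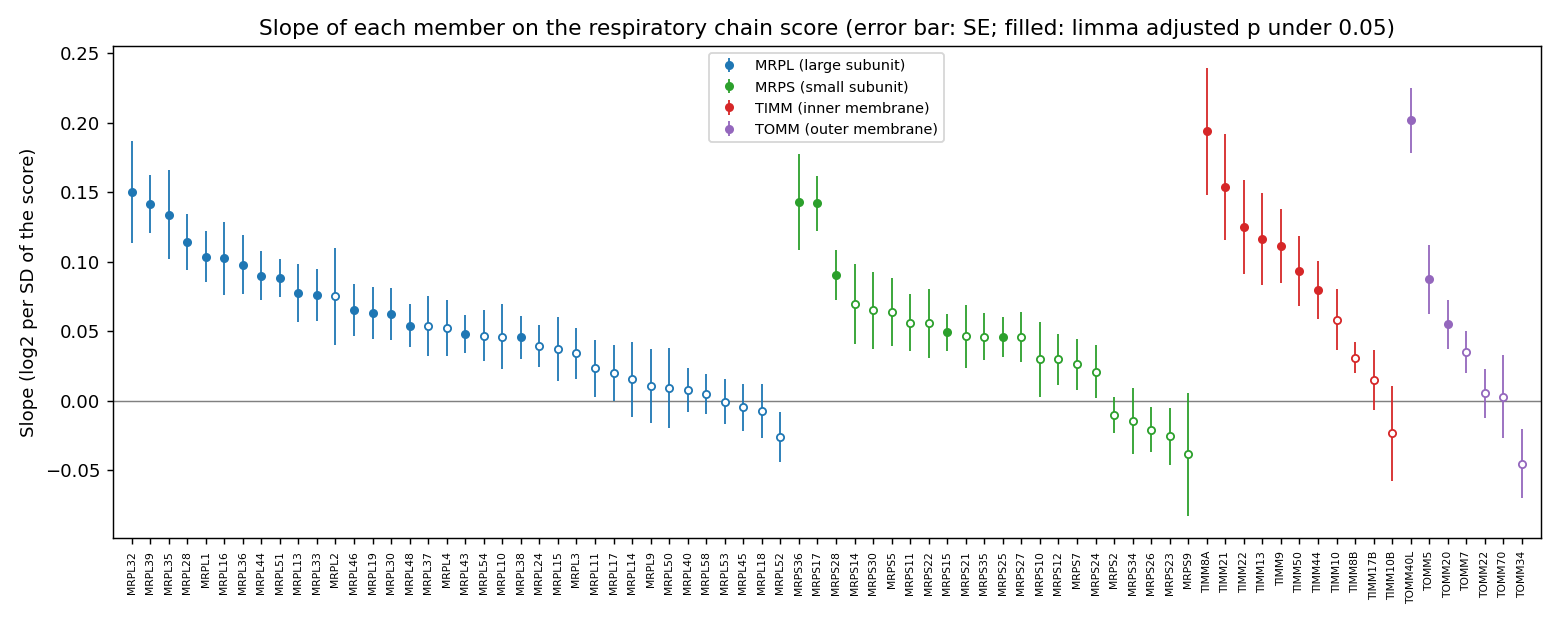
Slope of each of the 76 members on the respiratory chain score (log2 per SD of the score, error bars are SE, n = 59 pigs), grouped by family and ordered by slope, with filled points where the limma adjusted p was under 0.05. The 32 filled points all lie above 0, and the highest are TOMM40L (0.201) and TIMM8A (0.194).

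In the outer membrane, TOMM40L followed the respiratory chain most closely of all members. TOMM40L encodes a relative of TOMM40, the channel through which precursors cross the membrane. Its values ran from 7.66 through a median of 8.20 to 9.19 (mean 8.21 ± 0.268, SD, n = 59), and the highest, in pig 72, lay 0.479 above the next pig. Its slope was 0.201 ± 0.023 (SE, limma adjusted p = 1.79e-09), and without pig 72 it was 0.163 (adjusted p = 6.15e-07). The correlation with the score was 0.753, and the closest single chain genes were the complex I subunits NDUFA11 (r = 0.834) and NDUFB8 (0.815).

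TOMM5 and TOMM20 had smaller slopes, and both calls depended on single pigs. TOMM5, a small subunit of the TOM core, ran from 10.98 through 11.46 to 11.89 and had a slope of 0.0873 ± 0.025 (adjusted p = 0.015, or 0.0617 without pig 72). TOMM20 ran from 10.91 through 11.31 to 11.55 with a slope of 0.0551 ± 0.018 (adjusted p = 0.0346), and its call was lost when any 1 of 8 pigs was left out, with an adjusted p of 0.12 without pig 72. The other receptors lay near 0: TOMM22, which docks the receptors to the channel, had a slope of 0.00547 ± 0.017 (10.48 to 11.10, median 10.88), and TOMM70, the receptor for carrier precursors, one of 0.00306 ± 0.030 (5.70 to 7.04, median 6.54). TOMM34 had the lowest slope of all 76 members, -0.0451 ± 0.025 (6.31 to 7.24, median 6.86, adjusted p = 0.297). TOMM7, which modulates the assembly of the complex, had a slope of 0.0349 (adjusted p = 0.149).

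In the intermembrane space, TIMM8A had the largest slope and the largest spread of any TIMM gene. TIMM8A ran from 8.61 through 9.37 to 10.30 (mean 9.39 ± 0.399, SD, n = 59), and its slope was 0.194 ± 0.045 (adjusted p = 0.00238, or 0.0256 without pig 72). Its partner TIMM13 had a slope of 0.116 (adjusted p = 0.016), which was no longer called without pig 72 (0.156). TIMM9 and TIMM10 form the other small chaperone: TIMM9 was called, at 0.111 (adjusted p = 0.00315), and TIMM10 was not, at 0.0581 (0.0893), and the difference between these partners was not tested. TIMM8B, a close relative of TIMM8A, was the steadiest of all members, between 12.59 and 12.99 with a median of 12.82 and an SD of 0.0820. Its slope was 0.0311 ± 0.011 (adjusted p = 0.0747). A bright probe set such as this one lies in a range where differences can be compressed on these arrays.

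In the inner membrane, the slopes of TIM23 and TIM22 subunits were spread widely. TIMM21 ran from 8.50 through 9.14 to 10.02, with a slope of 0.154 ± 0.038 (adjusted p = 0.00433, or 0.0522 without pig 72). TIMM50, the receptor of the presequence translocase, had a slope of 0.0935 (adjusted p = 0.00954). Its highest value, 9.28 in pig 72, lay 0.373 above the next pig, and without that pig the slope was 0.0576 (adjusted p = 0.177). TIMM44, which tethers the import motor to the channel, ran from 6.77 through 7.23 to 7.58 and had a slope of 0.0799 ± 0.021 (adjusted p = 0.00708). TIMM17B, a channel subunit of the same complex, showed no call, with a slope of 0.0149 ± 0.022 (8.65 to 9.46, median 9.13). In the carrier translocase, TIMM22 ran from 7.07 through 7.65 to 8.42 with a slope of 0.125 ± 0.034 (adjusted p = 0.010, or 0.101 without pig 72), whereas TIMM10B, a small subunit bound to it, ran from 8.03 through 8.79 to 9.39 with a slope of -0.0234 ± 0.034.

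Among large subunit genes, 10 of the 21 with a bacterial counterpart and 7 of the 15 without one were called. MRPL32 is a large subunit protein that a protease of the inner membrane must cleave before it can join the ribosome. It varied most among them, from 8.10 through 8.75 to 9.60 (mean 8.75 ± 0.319, SD, n = 59), with a slope of 0.150 ± 0.037 (adjusted p = 0.00388, or 0.0536 without pig 72). MRPL39 ran from 8.96 through 9.42 to 9.97 and had the firmest slope of the family, 0.141 ± 0.021 (adjusted p = 6.48e-07, or 3e-05 without pig 72). MRPL35 ran from 8.45 through 9.05 to 9.75, with a slope of 0.134 ± 0.032 (adjusted p = 0.00282). MRPL51 and MRPL1 had smaller slopes with tight errors, 0.0883 ± 0.014 (adjusted p = 3e-06) and 0.104 ± 0.018 (4.19e-05). At the other end, MRPL52 (10.19 to 10.85, median 10.58), MRPL18 (9.27 to 9.98, median 9.64) and MRPL45 (9.46 to 10.01, median 9.78) had slopes of -0.0261, -0.00722 and -0.00465, none of them called. MRPL45 is thought to help hold the ribosome to the inner membrane. MRPL58, a release enzyme that became part of the large subunit, had a slope of 0.00488.

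Of the genes with an MRPS symbol, 5 of 22 were called, and whether the families differ in this was not tested. MRPS17, the counterpart of a bacterial protein that binds the small ribosomal RNA, ran from 9.17 through 9.64 to 10.25 (mean 9.64 ± 0.204, SD, n = 59). Its slope was 0.142 ± 0.020 (adjusted p = 2.13e-07, or 1.98e-05 without pig 72), and pigs 16 and 36 were its lowest and pig 72 its highest. MRPS28 ran from 9.15 through 9.55 to 9.90 with a slope of 0.0907 ± 0.018 (adjusted p = 0.000257). MRPS36 had the largest slope among the MRPS symbols, 0.143 ± 0.035 (8.32 to 9.62, median 9.05, adjusted p = 0.00334). Its product is now counted as a subunit of the 2-oxoglutarate dehydrogenase complex of the TCA cycle rather than of the ribosome. Likewise, the product of MRPS30 sits in the large subunit despite its symbol, and its slope was 0.0650 (adjusted p = 0.147).

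MRPS9, a small subunit protein with a bacterial counterpart, varied widely without following the chain. It ran from 8.0 through 8.94 to 9.60 (mean 8.91 ± 0.342, SD, n = 59), and its slope was -0.0385 ± 0.044 (adjusted p = 0.687). On a score of the 8 complex IV genes alone it was the 1 member called lower, with a slope of -0.123 ± 0.041 (adjusted p = 0.0462). Of all tested probe sets, 4.05% were called lower on that score. Another MRPS9 probe set past the filter had r = 0.418 with the chosen one and a respiratory chain slope of -0.000607 (adjusted p = 0.996). MRPS23 (6.54 to 7.27, median 6.94) and MRPS26 (9.83 to 10.42, median 10.11) had slopes of -0.0255 ± 0.020 and -0.0207 ± 0.016, neither called.

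Of the 32 calls, 10 survived both every 1 of 15 other ways of processing or scoring and the removal of each pig in turn. They are TOMM40L, MRPS17, MRPL39, MRPL51, MRPL1, MRPL28, MRPL44, MRPL35, MRPS28 and TIMM8A, so each of the 4 families is represented. No called slope turned negative under any of these. None of the 10 had another probe set above the filter, so averaging the probe sets of a gene left their values unchanged. Of the 6 called members that had one, 4 were not called on it. The count depended on which complex made up the score: it was 34 with complex I genes alone, 27 with complex III, 28 with ATP synthase and 16 with complex IV. The share of all tested probe sets called higher on these scores was 6.72%, 5.05%, 6.29% and 5.6% in the same order.

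As a summary for each pig, the members were averaged into a score in the same way as the chain genes. The member score correlated with the respiratory chain score at r = 0.677 (Spearman rho = 0.663, n = 59 pigs, jackknife SE 0.068), and at 0.649 without pig 72. By complex, r was 0.728 with complex I, 0.583 with complex III, 0.633 with ATP synthase and 0.449 with complex IV. The mean log2 value of the members spanned 0.373 between pig 16 (9.26) and pig 72 (9.64), and that of the chain genes spanned 0.603 between pig 36 (11.86) and pig 72 (12.47). The ribosome and import scores correlated with each other at 0.835, and the large and small subunit scores at 0.888. They were built by symbol, so MRPS36 and MRPS30 are in the ribosome and small subunit scores and TOMM34 in the import score. These scores share arrays, and each is a mean of many genes.

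**Figure D4:**
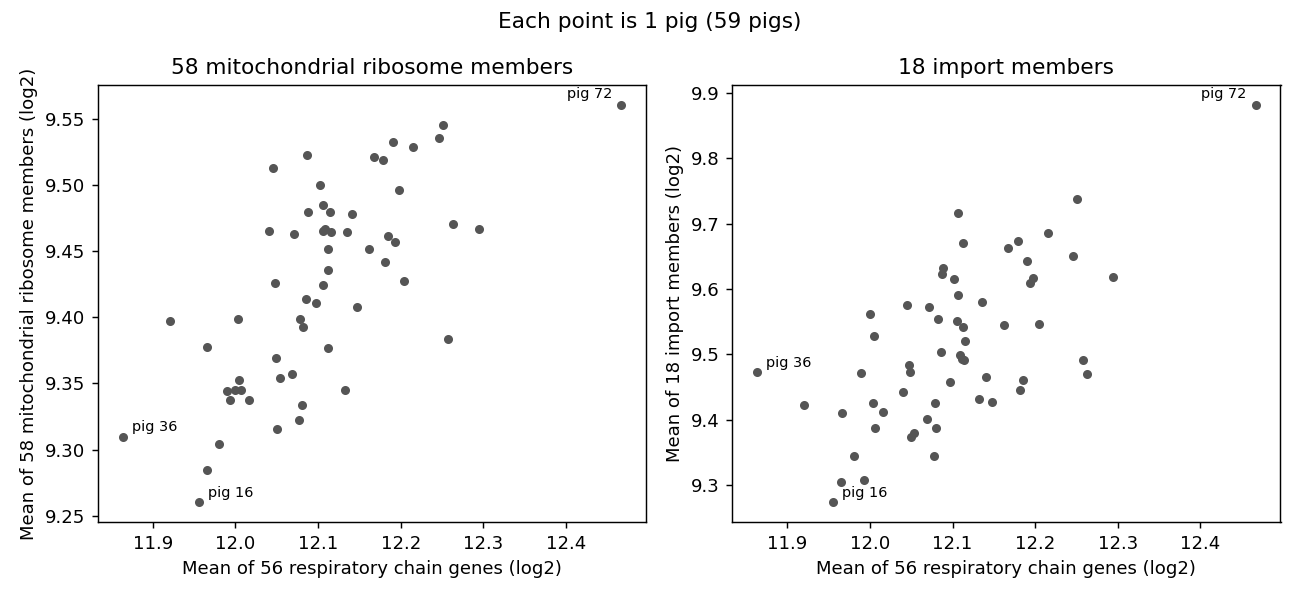
Mean log2 value of the 58 members with MRPL or MRPS symbols (left) and the 18 with TIMM or TOMM symbols (right) against the mean of 56 respiratory chain genes, 1 point per pig (59 pigs). Both clouds slope upwards, pig 16 is lowest in both member means, pig 36 is lowest in the chain mean, and pig 72 lies apart at the upper right, at 9.56 and 9.88.

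Other properties of the arrays moved with the member score. It correlated at -0.545 with the score of 3 fibroblast and matrix genes (COL1A2, DCN and LUM, with 3 of 5 listed markers measured above the filter) and at -0.499 with the median of the array, although those medians spanned a narrow range. Its correlation was -0.335 with the adipocyte score, -0.188 with the macrophage and leukocyte score, 0.0654 with the endothelial score and -0.263 with the skeletal muscle score. With the fibroblast and matrix score as a covariate, 26 members were called higher with the respiratory chain score, and with the array median as a covariate, 33 were. In these models 6.55% and 6.85% of all tested probe sets were called higher. Both covariates were chosen after these correlations had been seen. The main axis of variation, the first principal component of probe sets outside the gene lists, had r = 0.323 with the member score. That component had r = 0.238 with the ribosome score, 0.525 with the import score and 0.557 with a score of the TIMM genes. The heat shock score described below had r = 0.233, 0.176 and 0.364 with the member, ribosome and import scores. The part of this axis in the import genes was not tested.

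Single chain genes differed in how closely they followed the members. The complex I gene NDUFA13 had the highest median correlation with the 76 members (0.349, positive for 65), followed by NDUFB8 (0.335) and UQCR10 of complex III (0.330). COX8H of complex IV and ATP5G2 of ATP synthase lay at the other end, at -0.0388 and 0.00980. Among the complex IV genes this median ran from -0.0388 for COX8H to 0.301 for COX7A2. The members closest to COX7A2 were TIMM8A (r = 0.828) and TIMM13 (0.816). ATP5G2, which encodes the membrane ring protein of ATP synthase from 1 of several gene copies, gave the lowest value with any member, -0.525 with TIMM8A.

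The cytosolic ribosome gave a different picture. On the score of 56 cytosolic ribosomal protein genes, 8 members were higher and 5 lower, where 5.61% of all tested probe sets were higher and 3.51% lower. The member score had r = 0.00683 with it (n = 59 pigs), and the median correlation of single members with single cytosolic ribosomal protein genes was 0.00156. Higher were MRPL52, MRPS26, TOMM22, MRPL40, MRPL14, MRPL53, MRPL30 and MRPS21, and lower were MRPL2, MRPL54, MRPS5, TIMM44 and TOMM70. The largest positive slopes belonged to MRPL52, 0.0816 ± 0.015 (adjusted p = 0.000208), and MRPS26, 0.0741 ± 0.013 (0.000216), which both had negative slopes on the respiratory chain. These, TOMM22 and MRPL40 were called under each of the other settings and without any 1 pig.

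The members lower with the cytosolic ribosome were less secure. MRPL2, a large subunit protein with a bacterial counterpart, ran from 8.11 through 9.10 to 9.83 with a slope of -0.122 ± 0.033 (adjusted p = 0.0119), and TOMM70 had a slope of -0.101 ± 0.027 (0.0111). MRPL54 (7.52 to 8.13, median 7.83), MRPS5 (7.70 to 8.64, median 8.28) and TIMM44 had slopes of -0.0656, -0.0772 and -0.0744. None of these 5 was called once the arrays were centred on the same median, or when the 2 pigs with the most extreme scores were left out. TIMM44 was the only member called higher on the respiratory chain and lower here, and MRPL30 the only one called higher on both. MRPL53 (10.44 to 11.05, median 10.79) was higher here, at 0.0479 ± 0.015 (adjusted p = 0.0319), with a respiratory chain slope of -0.000559.

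On the score of 9 slow fibre genes, which encode contractile proteins and partners of oxidative fibres, 1 member was higher and 1 lower, where 2.77% of all probe sets were higher and 1.86% lower. MRPL39 was the higher one, at 0.118 ± 0.023 (limma adjusted p = 0.000571), and MRPL52 the lower, at -0.0644 ± 0.016 (0.00963). MRPL52 was lowest in pig 72, and its call was lost without that pig. The shares of all tested probe sets then fell to 0.759% higher and 0.267% lower, with MRPL39 the 1 member higher. The slow fibre score correlated at 0.529 with the respiratory chain score and at 0.132 with the member score. Without the 2 pigs with the most extreme slow fibre scores these were 0.427 and 0.0810.

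On the score of 18 heat shock genes, which follows the main axis of variation on these arrays (r = 0.842 with the first principal component of the other probe sets), nearly as many tested probe sets were lower (22.3%) as higher (23.6%). Of the members, 27 were higher and 12 lower. The TIMM family had 7 of 11 higher and 2 lower. TIMM8A had a heat shock slope of 0.207 ± 0.044 (adjusted p = 0.000112), TIMM21 one of 0.199 ± 0.034 (3.05e-06) and TIMM22 one of 0.176 ± 0.030 (2.08e-06). MRPL15 and MRPS22 were higher with heat shock genes as well, at 0.115 ± 0.018 and 0.120 ± 0.020, while their respiratory chain slopes were not called. At the opposite end were MRPS14 (-0.107), MRPL39 (-0.102), MRPL30 (-0.0828) and TIMM17B (-0.0827), all called lower. With the first principal component as a covariate, the counts were 4 higher and 5 lower, where 6.56% of all tested probe sets were higher and 6.73% lower.

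The 32 respiratory chain calls were also sorted by heat shock. There were 13 also higher with heat shock genes, among them MRPL32, MRPL35, MRPL36, MRPL44 and 6 TIMM genes. There were 15 with no heat shock call, among them TOMM40L, TOMM5, MRPS17, MRPS28, MRPS36, MRPL28 and MRPL1. The remaining 4, MRPL39, MRPL51, MRPL30 and MRPL48, were lower with heat shock genes. The 44 members not called on the respiratory chain split into 14 higher, 22 with no heat shock call and 8 lower. Of all tested probe sets, 23.6% were higher with heat shock genes and 22.3% lower. The respiratory chain and heat shock scores themselves had r = -0.192 over the 59 pigs.

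**Figure D5:**
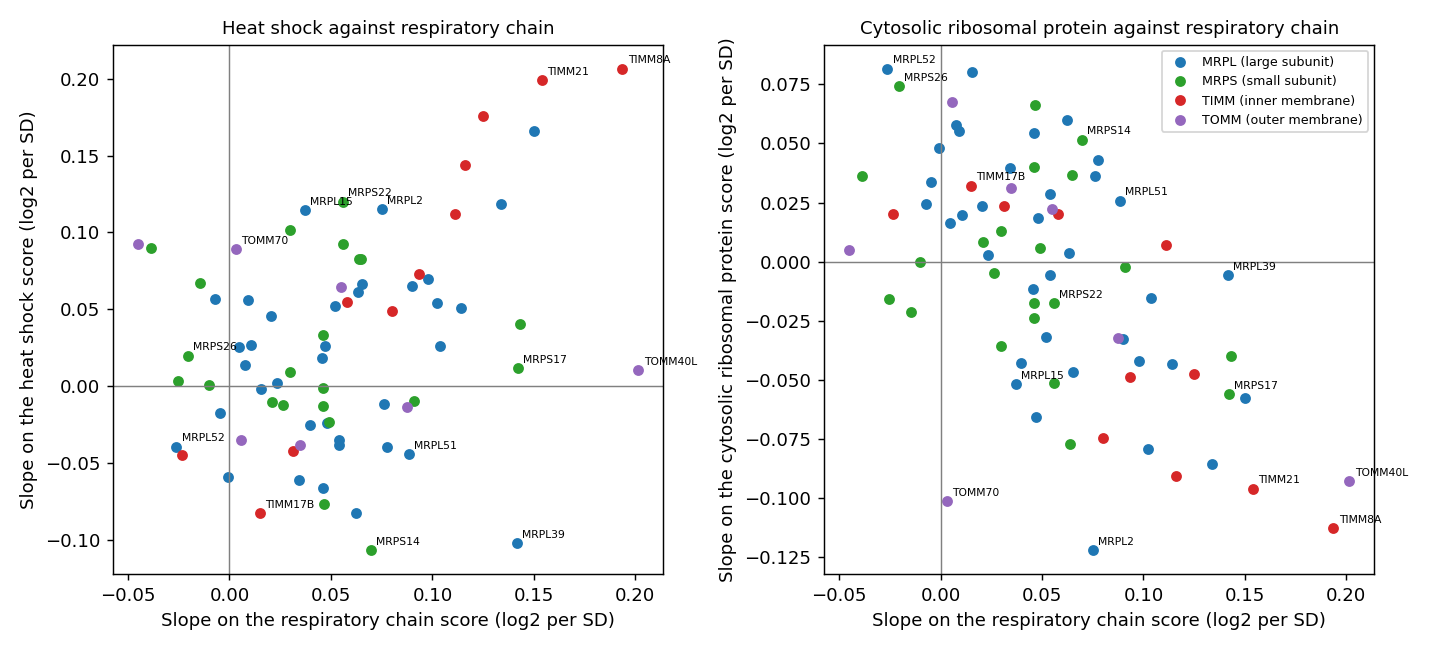
Slope of each of the 76 members on the heat shock score (left) and on the cytosolic ribosomal protein score (right) against its slope on the respiratory chain score, all in log2 per SD of the score. On the left, TIMM8A and TIMM21 lie high on both axes, TOMM40L is high on the respiratory chain axis with a heat shock slope of 0.0101, and MRPL39 is below 0 on heat shock; on the right, MRPL52 and MRPS26 lie at the upper left.

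With all 4 scores in 1 model, the respiratory chain slope was called higher for 41 members and lower for 0, where 8.08% of all 11812 tested probe sets were higher and 2.12% lower. Without pig 72 there were 38 higher and 0 lower, where 7.56% of all tested probe sets were higher and 1.74% lower. Of the 32 members called before, 31 were called here, and MRPL38 was not. There were 10 added: MRPL15, MRPL17, MRPS5, MRPS10, MRPS11, MRPS22, MRPS30, MRPS35, TIMM10 and TIMM8B. All 5 small chaperones of the intermembrane space were then among the calls, and 9 of the 11 TIMM genes. TIMM8A had the largest slope in this model, 0.280 ± 0.038 (adjusted p = 1.87e-07), then TIMM21 with 0.224 ± 0.028 (2.96e-08), TOMM40L with 0.219 ± 0.027 (2.03e-08) and MRPL32 with 0.212 ± 0.032 (2.13e-06). The slope of MRPL39 was smaller here, 0.101 ± 0.020 (adjusted p = 0.000246).

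Genes that work beside the members were drawn from lists. Of 15 import partners, 6 were higher with the respiratory chain score and 0 lower, with a median slope of 0.0584. Of all probe sets tested on that score, 6.5% were higher and 2.33% lower. MIPEP, a peptidase that trims imported proteins, had the largest slope, 0.131 (limma adjusted p = 0.00586), then MTX2 of the outer membrane (0.0982, 0.0478) and PMPCB, a subunit of the presequence peptidase (0.0959, 7.23e-05). The matrix chaperones HSPD1 and HSPE1 and the import motor HSPA9 were not called, at 0.0293, 0.00773 and 0.0351. LONP1, a matrix protease, had the only negative slope, -0.00221.

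Of 21 genes of mitochondrial translation, 9 were higher and 0 lower, where 6.5% of all tested probe sets were higher and 2.33% lower. Their median slope was 0.0505. The elongation factors GFM1 (0.146, adjusted p = 0.000106) and TUFM (0.123, 1.67e-05) and the ribosome recycling factor MRRF (0.128, 9.7e-06) had the largest slopes. The lowest belonged to the tRNA synthetase KARS (-0.0240), which also serves the cytosol, and to the ribosome assembly factors ERAL1 (-0.00946) and MTG1 (-0.00456). The member score had r = 0.874 with the translation score and 0.804 with the import partner score.

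Among 7 regulators of mitochondrial biogenesis, TFAM, which packages mitochondrial DNA and starts its transcription, was the 1 gene called higher, at 0.0637 ± 0.017 (adjusted p = 0.00994). PPARGC1A, a coactivator of mitochondrial genes, varied most, with an SD of 0.867, and its slope of 0.283 ± 0.106 was not called (adjusted p = 0.0842). Across the members, the median correlation was 0.240 with TFAM, 0.226 with SSBP1, which binds single strands of mitochondrial DNA, and 0.196 with PPARGC1A. For each of these 3 regulators, the member with the highest correlation was TIMM21 for SSBP1 (0.858), TIMM8A for TFAM (0.760) and TIMM22 for PPARGC1A (0.630). All 4 succinate dehydrogenase genes and 7 of 12 TCA cycle genes were higher with the chain score, for comparison. For this and the regulators, 6.5% of all tested probe sets were higher with that score and 2.33% lower.

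A second probe set was present for 17 members, and it did not always give the same answer. Of the 23 pairs of a chosen and another probe set, 5 had a correlation under 0.2, and in 13 pairs the other probe set also passed the filter on dim values. For MRPL32 the other probe set had r = 0.917 and a respiratory chain slope of 0.144 (adjusted p = 0.0137). For MRPL2 it had r = 0.781 and a slope of 0.133 (7.11e-05), which was called where the chosen one, at 0.0750 (0.193), was not. For MRPS12 it had a slope of 0.0955 (0.0271), against 0.0298 (0.373) for the chosen one. Of the 6 members called on the respiratory chain that had another probe set past the filter, 2 were called on it as well, MRPL32 and TIMM44, and 4 were not: TIMM50 (0.0547, adjusted p = 0.399), MRPL46 (0.0539, 0.149), MRPL43 (0.0291, 0.4) and MRPL33 (0.0855, 0.448). A further, dim probe set of MRPL46 ran against the chosen one, with r = -0.350.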

How the data were processed

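Total RNA from the longissimus dorsi of 59 pigs was hybridised to Affymetrix porcine arrays, 1 per pig, per the labels' protocols. Values deposited by the authors run from 2.39 to 15.04 and were read as log2. They were made with GCRMA (background correction, quantile normalisation and probe summary), per the submitters' processing notes. Its version and the log base are not given in the sources used here. GCRMA compresses differences of dim probe sets, and saturation those of bright ones.

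Of 24123 probe sets, 124 were controls and 10099 had 1 gene symbol in the platform annotation. MRPL22 and MRPL55, whose probe sets list several gene entries, were left out. Probe sets whose mean reached the median of all means (12000, of which 133 with several symbols and 5649 with none are not named) were fitted with limma 3.58.1 in R 4.3.3 as a slope on each score, leaving out the score's own genes. A score is the mean of its genes, each scaled over pigs, brought to an SD of 1. Data were simulated with independent noise for each of 12000 probe sets, of which 200 were changed. The fit to the respiratory chain score recovered 62% of changed probe sets at a slope of 0.5 SD and 100% at 1 SD, with 9 false calls. Real probe sets co-vary, which was not simulated, so these rates may not hold for the data here. Figures were drawn with matplotlib 3.10.9.

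Members, gene lists and scores were chosen with earlier results of these data known, and roles were assigned to members after their values were seen. Lowest, median and highest values are given, for each family, for the 3 largest and 3 smallest respiratory chain slopes, the largest SD, and members called on the cytosolic ribosome against the sign of their respiratory chain slope; other members named were chosen after their values were seen. P-values reflect the spread between pigs, whose number sets the precision. Filters, centring, normalisation, probe set choice, score construction, covariates and leaving out each pig were varied. Trait values per pig were not analysed here.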

Additional observations from a re-analysis of the deposited data

How the results depend on the processing

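The count of members higher with the respiratory chain score stayed within 1.5 times its main value except in the following cases. It was 20 without the 2 pigs with the most extreme scores, 20 without pig 72 alone, and 16 with complex IV genes only (with 1 lower, MRPS9). Leaving out each pig gave 20 to 33, the lowest without pig 72, with 0 lower each time. Given the other 3 scores it was 38 to 43, with 0 lower. On the cytosolic ribosomal protein score, the count of higher members was 5 with no filter, 13 with re-centred arrays, 4 with quantile normalisation repeated, 5 with probe sets averaged, 4 without the 2 most extreme pigs, 5 with the first principal component as a covariate, and 4 to 9 over pigs left out, the lowest without pig 5. The count of lower members was 0, 1 and 0 with re-centred arrays, averaged probe sets and without the 2 most extreme pigs, and 5 to 7 over pigs. On slow fibre genes, the lower member was lost with averaged probe sets and without the 2 most extreme pigs (0 each), and pigs left out gave 1 to 2 higher and 0 to 1 lower; the second higher call appeared without pig 12 or pig 57. On heat shock genes, the first principal component as a covariate left 4 higher and 5 lower, and pigs left out gave 24 to 32 and 9 to 13. The median correlation between members was 0.208 with re-centred arrays, 0.139 with quantile normalisation repeated and 0.192 with the first principal component removed, and 0.152 to 0.168 over pigs left out; the correlation of the member and respiratory chain scores was 0.649 to 0.713. No slope of a member called on the respiratory chain or cytosolic ribosomal protein score reversed; single slopes on the other scores were not followed. The causes of these changes were not tested. For most of these settings the share of all tested probe sets called was not computed. Counts of members under them therefore cannot be set against the array as a whole. All pigs form 1 group with 1 array each. No paired analysis was possible because there is only 1 group. TOMM70, TOMM34 and MRPS23 lay closest to the filter on dim probe sets. How near their signal lies to background was not estimated.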
